A study of Equus caballus with 20 samples.

Results

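Chemokine ligands of the equine oviduct epithelium were examined as a family: CXCL9, CXCL10, CXCL11, CXCL16, CX3CL1, CCL5, CCL2, CXCL12 and CCL28. They were chosen by symbol, and all 9 were found among the 26740 features of the table and among the 14692 kept for testing. RNA had been sequenced from epithelial cells of Warmblood mares, taken 4 days after ovulation at the ampullary-isthmic junction, where the wide and the narrow stretch of the tube meet. The 20 libraries form 4 groups of 5: pregnant mares on the side of ovulation (ipsilateral, PI), pregnant mares on the opposite side (contralateral, PC), cyclic (not pregnant) mares ipsilateral (CI) and cyclic mares contralateral (CC). No group carries an agent, and pregnancy status and side are what sets the groups apart in the labels. A name such as PI4 is the group with its replicate number. The labels do not say whether PI4 and PC4 come from the same mare, or how many mares there were.

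Chemokines are small secreted or membrane-anchored proteins that attract leukocytes through receptors with membrane-spanning helices. CXCL9, CXCL10 and CXCL11 share the receptor CXCR3 of activated T and natural killer cells and are classical targets of interferon gamma. CXCL16 and CX3CL1 are made as transmembrane proteins and shed by ADAM proteases, CCL5 and CCL2 attract T cells and monocytes, and CXCL12 and CCL28 are known more from steady-state tissue, CXCL12 from stroma and CCL28 from mucosal epithelium.

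Depth ran from 2795168 to 10126484 reads per library, so that 3 reads, the limit that a count of 0 allows, equal 1.75 to 7.03 normalized counts. In 3 libraries (PI1, PI4 and CI3) a single feature took more than 10% of the reads. Epithelial markers were present in every library: the 5 multiciliated markers summed to 36843 to 57815 normalized counts and EPCAM with CDH1 to 2624 to 6778. The 4 secretory markers summed to 1759 to 3078. Their group means were 1687 to 2032 for PAX8, 324 to 487 for KRT7 and 25.3 to 39.7 for MSX1. The oviduct glycoprotein OVGP1 had group means of only 3.02 to 6.66. Leukocyte markers were present too: PTPRC, the CD45 gene of all leukocytes, ran from 101 (CI3) to 704 (PC4). In bulk tissue, fewer cells of a type and less RNA per cell cannot be told apart.

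Levels of the 9 ligands varied more between libraries of a group than most genes did. The SD within groups on the log2 scale was 1.43 for CXCL10, 1.32 for CXCL9 and 1.25 for CXCL11, then 0.938 for CCL5, 0.696 for CCL2, 0.668 for CXCL16, 0.551 for CXCL12, 0.503 for CCL28 and 0.438 for CX3CL1. The median over all 14692 features was 0.403, and all 9 ligands lay above it. Most of the highest values came from few libraries. CI1 was the highest of 20 in 3 ligands (CXCL9, CXCL10 and CXCL11) and PC4 in 4 (CXCL16, CX3CL1, CCL5 and CCL2). CC3 was the highest in CXCL12 and CC4 in CCL28.

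CXCL10 recruits activated T cells through CXCR3. In normalized counts, libraries PI1 to PI5 had 44.5, 35.0, 115, 161 and 9.45, while PC1 to PC5 had 45.2, 36.8, 248, 244 and 73.2. In cyclic mares it was 275, 90.6, 18.01, 22.4 and 39.6 in CI1 to CI5 and 5.27, 8.54, 43.2, 20.04 and 95.4 in CC1 to CC5. High and low libraries occurred in each group: the lowest value (CC1) and the highest (CI1), 52.2-fold apart, are the 2 cyclic libraries numbered 1. CC1 had only 4 reads of CXCL10, near the limit of 3 reads, so this ratio is uncertain. Group means were 73.1 ± 62.9 in PI, 129 ± 107 in PC, 89.2 ± 108 in CI and 34.5 ± 37.2 in CC (SD, n = 5 each).

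CXCL9, the ligand of the same receptor that is most closely tied to interferon gamma, was 11.7, 4.86, 88.3, 13.4 and 15.4 across PI1 to PI5 and 15.1, 6.599, 131, 19.3 and 33.3 across PC1 to PC5. It was 144, 18.5, 9.005, 23.2 and 8.57 in CI1 to CI5 and 11.9, 2.44, 7.68, 21.7 and 27.6 in CC1 to CC5. A single number stood high in the pregnant groups (PI3 with PC3), and a single library in CI (CI1), with no such library in CC. Group means were 26.7 ± 34.6, 41.1 ± 51.3, 40.6 ± 58.1 and 14.3 ± 10.3 in PI, PC, CI and CC (SD, n = 5 each).

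CXCL11, the third CXCR3 ligand, was near the limit of detection. It had 0 to 47 reads per library, no read in 6 libraries and 3 reads or fewer in 13 of 20. Its normalized counts were 0, 1.94, 11.9, 15.1 and 0 across PI1 to PI5, 0, 0.943, 30.2, 9.94 and 5.54 across PC1 to PC5, and 45.4, 7.75, 1.801, 0.80003 and 0 in CI1 to CI5. In CC1 to CC5 they were 0, 0.610, 2.88, 0 and 2.30, at most 3 reads in any library. The libraries with the most CXCL11 (CI1, PC3, PI4 and PI3) are among the 5 with the most CXCL10. In the reference gene table (RefSeq, TB-T2T assembly) CXCL11, CXCL10 and CXCL9 follow each other on the chromosome with no gene between.

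**Figure D1:**
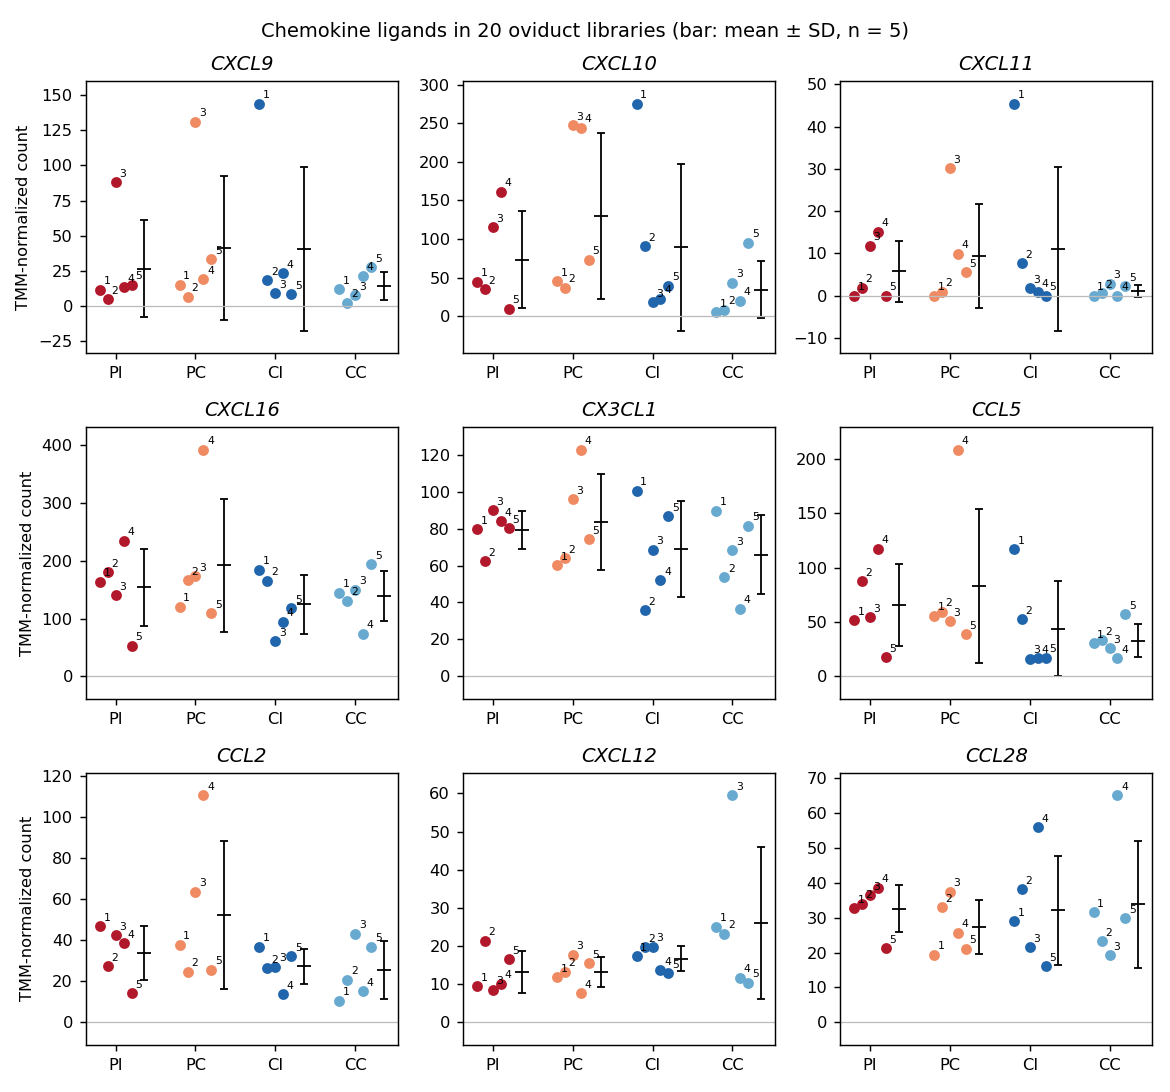
TMM-normalized counts (vertical axis, linear, own scale per panel) of the 9 chemokine ligands in each of the 20 libraries, by group, with the replicate number beside each point and bars for mean ± SD (n = 5). Groups overlap in every panel, and single libraries such as CI1 (CXCL10 275) and PC4 (CCL5 209) lie far above the rest of their group.

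The transmembrane chemokine CXCL16 had its lowest, median and highest values at 53.2, 164 and 235 in PI, 110, 166 and 392 in PC, 61.2, 118 and 184 in CI, and 73.5, 145 and 194 in CC. The other one, CX3CL1, which binds CX3CR1 on cytotoxic lymphocytes and monocytes, spanned 62.2, 80.3 and 90.0 in PI, 60.3, 74.3 and 123 in PC, 35.8, 68.4 and 100.4 in CI, and 36.7, 68.1 and 89.6 in CC. CX3CL1 was the steadiest of the 8 ligands detected in all libraries, with 3.43-fold between its lowest library (CI2) and its highest (PC4). For CXCL16 that ratio was 7.38.

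CCL5, an attractant of T cells and monocytes that T cells also make themselves, was 51.5, 87.5, 54.3, 117 and 17.7 across PI1 to PI5 and 56.0, 59.4, 51.0, 209 and 38.8 across PC1 to PC5. It was 117, 52.5, 16.2, 16.8 and 17.1 in CI1 to CI5 and 30.3, 33.6, 25.9, 16.7 and 57.5 in CC1 to CC5. Of the 5 CI libraries, 3 lay below every pregnant library, while CI1 was close to the highest PI library (PI4). All 5 PC libraries were above 4 of the 5 CC libraries, and CC5 lay inside the PC range.

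CCL2, which draws monocytes through CCR2, was 46.9, 27.2, 42.4, 38.6 and 14.2 across PI1 to PI5 and 37.7, 24.5, 63.5, 110 and 25.5 across PC1 to PC5. In the cyclic groups it was 36.7, 26.2, 27.0, 13.6 and 32.1 in CI1 to CI5 and 10.5, 20.7, 43.2, 15.0 and 36.8 in CC1 to CC5. PC3 and PC4 held the 2 highest values, and 3 of 5 CC libraries were below all PC libraries.

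CXCL12, the ligand of CXCR4 that holds lymphocytes and stem cells in tissue, was low. Its values were 9.37, 21.4, 8.49, 10.1 and 16.5 across PI1 to PI5, 11.8, 13.2, 17.7, 7.60 and 15.5 across PC1 to PC5, 17.4, 19.7, 19.8, 13.6 and 12.9 in CI1 to CI5, and 25.0, 23.2, 59.5, 11.7 and 10.3 in CC1 to CC5. It is the ligand whose highest 3 values came from CC (CC3, CC1 and CC2). CCL28, which attracts antibody-secreting cells through CCR10, had overlapping ranges: its lowest, median and highest values were 21.3, 34.0 and 38.6 in PI, 19.4, 25.7 and 37.5 in PC, 16.1, 29.0 and 56.0 in CI, and 19.2, 29.9 and 65.1 in CC. Within CI and within CC the highest CCL28 library was number 4, which in both groups was the lowest or next to lowest for CCL2 and CX3CL1.

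The question named by the study's title is whether an embryo changes immune-related expression in the oviduct. On the ovulation side, whose oviduct takes up the egg, PI was compared with CI. No ligand differed beyond the spread: by limma with Benjamini-Hochberg adjustment the smallest adjusted p was 0.999, and 0% of the 14692 features were called. At an unadjusted p under 0.05 there were 0 of 9 ligands, against 3.5% of all features (514). PI was the higher group for 5 of 9 ligands, against 48.1% of all features, with a median log2 difference of 0.11 against −0.01. In 0 of 9 ligands did PI and CI not overlap, against 0.592% of all features.

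For the CXCR3 ligands the ipsilateral log2 differences, PI minus CI, were −0.09 ± 0.81 for CXCL10, −0.37 ± 0.75 for CXCL9 and −0.25 ± 0.73 for CXCL11 (± SE). Those of CCL5 and CCL2 were 0.76 ± 0.54 and 0.25 ± 0.41. CXCL16 had 0.26 ± 0.39 and CX3CL1 0.27 ± 0.27, and CCL28 and CXCL12 had 0.11 ± 0.32 and −0.33 ± 0.35. Relative to its SE, the difference of CCL5 was the largest of the 9.

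Single libraries turned the sign of the CXCR3 ligands in this comparison. Without CI1 the log2 differences were 0.48 for CXCL10, 0.26 for CXCL9 and 0.41 for CXCL11, and PI was higher for 8 of 9. CXCL10 was also above 0 without PI5 (0.44), CI2 (0.09) or PI2 (0.04), and CXCL11 without PI1 or PI5 (0.03 each), while CXCL9 turned without CI1 alone. CCL5 kept its sign, but ran from 0.50 without PI4 to 1.20 without CI1. Without PI1, PI4 and CI3, the libraries in which a single feature took over 10% of the reads, PI was higher for 2 of 9, with CXCL10 at −0.93 and CCL5 at 0.24. For the other ligands the lowest and highest differences with 1 library left out were 0.03 (without CI3) and 0.59 (without PI5) for CXCL16, 0.07 (without CI2) and 0.42 (without CI1) for CX3CL1, 0.05 (without CI4) and 0.50 (without PI5) for CCL2, and −0.49 (without PI2) and −0.22 (without PI3) for CXCL12.

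**Figure D2:**
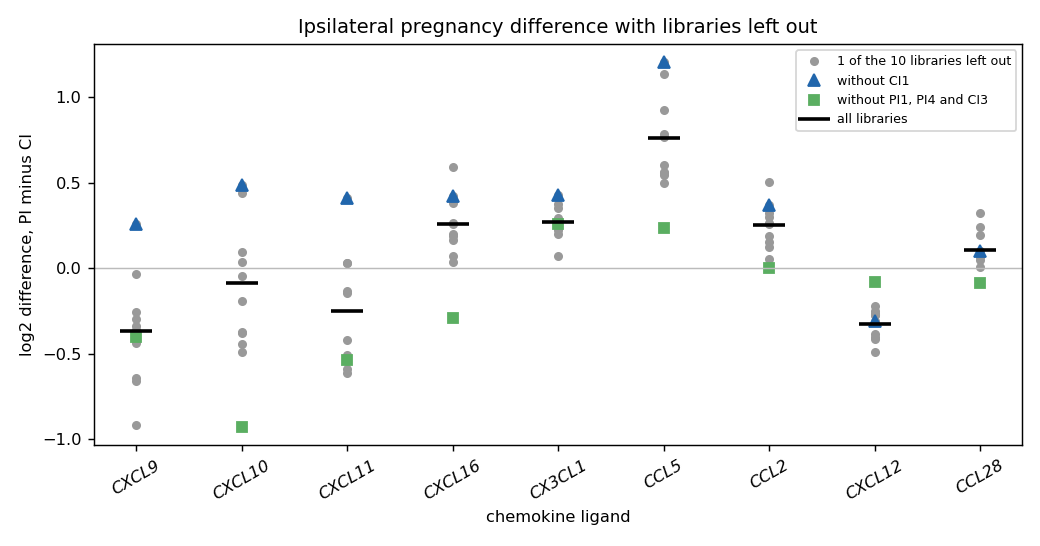
Log2 difference PI minus CI (vertical axis) of each ligand with all libraries (black line), with each of the 10 libraries left out in turn (grey points, CI1 as a blue triangle) and without PI1, PI4 and CI3 (green squares). CXCL9, CXCL10 and CXCL11 lie below 0 with all libraries and above 0 without CI1.

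On the opposite side, PC was compared with CC. PC was the higher group for 7 of 9 ligands, against 51.8% of all features, with a median log2 difference of 0.90 against 0.01. CXCL10 had the largest difference, 1.96 ± 0.81 (SE), followed by CXCL11 and CCL5, each at 1.08, with SE 0.73 and 0.54. CXCL9 had 0.97 ± 0.75 and CCL2 0.90 ± 0.41. The differences of CXCL16 and CX3CL1 were 0.37 ± 0.39 and 0.34 ± 0.27. CXCL12 and CCL28 had the opposite sign, with −0.64 ± 0.35 and −0.20 ± 0.32.

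None of these passed the test across all features: the smallest adjusted p of the 9 (limma, Benjamini-Hochberg) was 1.00, and 0% of features were called. By limma's unadjusted p, CXCL10 (0.0249) and CCL2 (0.0423) were under 0.05, which is 2 of 9 against 4.55% of all features (669). CCL5 had an unadjusted p of 0.0594 and CXCL12 one of 0.0833. In 0 of 9 ligands did PC and CC not overlap, against 0.585% of all features.

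Several contralateral differences also rested on single libraries. Without PC3, CXCL9 was at 0.41 and CXCL11 at 0.59, and without PC4, CXCL16 was at 0.07, CX3CL1 at 0.19, CCL5 at 0.68 and CCL2 at 0.58. CXCL9 was at 0.61 without CC2, and CXCL16 and CX3CL1 were each at 0.16 without CC4. CXCL12 was at −0.30 without CC3, its highest library, and CCL28 was at 0.05 without CC4. CXCL10 ran from 1.56 to 2.45 over the libraries left out in turn.

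**Figure D3:**
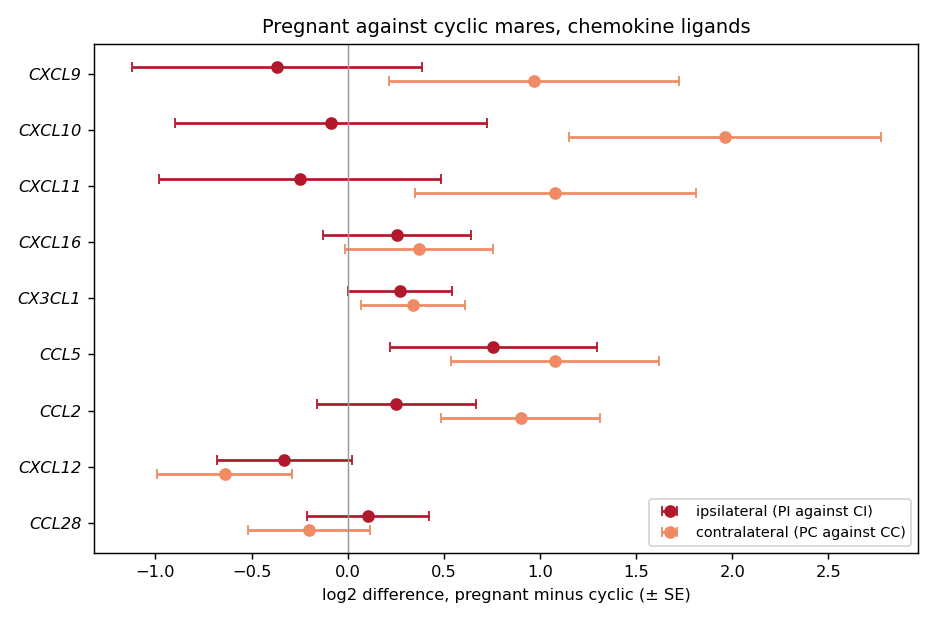
Log2 difference, pregnant minus cyclic, of the 9 ligands (horizontal axis, ± SE from the limma fit) on the ipsilateral side (PI against CI, red) and the contralateral side (PC against CC, orange). CXCL10 stands at −0.09 ipsilaterally and at 1.96 contralaterally, while CXCL16, CX3CL1, CCL5 and CCL2 are above 0 on both sides and CXCL12 below 0 on both.

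Both oviducts of a status and number were also averaged, which gave 5 pregnant and 5 cyclic units. The ligand with the smallest p was then CCL5, at a log2 difference of 0.92 ± 0.42 (SE), and next CXCL10 at 0.94 ± 0.52, with unadjusted p of 0.05 and 0.0934 by limma. Without the pregnant unit numbered 4 they were 0.59 and 0.57, CXCL10 was at 0.62 without the one numbered 3, and without PI1, PI4 and CI3 they were 0.41 and 0.57. The averaging takes equal numbers of a status as a unit, which the labels do not state. The 9 ligands ranged from −0.48 (CXCL12) to 0.94 (CXCL10), with the smallest adjusted p at 0.999 (limma), and 0% of all features were called.

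Whether the 2 oviducts differed was asked within each status. In pregnant mares, PI was the lower group for 8 of 9 ligands and the higher for CCL28 alone; the share of all features with PI higher was 44.6%. The limma fit did not pair libraries of the same number. In that fit the ligands with the smallest p were CCL2, with a log2 difference PI minus PC of −0.46 ± 0.41 (SE), and CXCL10, with −0.87 ± 0.81. Without PI5 these were −0.21 and −0.35, and without PC4 −0.15 and −0.54. CXCL10 was at −0.54 without PC3 as well, and without PI1, PI4 and CI3 the differences were −0.73 and −1.36. The range was −0.87 to 0.25, the smallest adjusted p was 0.999 (limma), and 0% of features were called.

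Libraries of the same number resembled each other in the pregnant groups, so these were also compared number by number. CXCL10 and CXCL9 were lower in PI than in PC for 5 of 5 numbers, which held for 7.57% of all features. For CXCL10 the log2 differences were −0.02, −0.07, −1.08, −0.59 and −2.61 for numbers 1 to 5, and for CXCL9 −0.30, −0.29, −0.56, −0.44 and −0.98. The sizes of the CXCL10 differences are thus uneven, with numbers 1 and 2 near equality. Several of these values rest on few reads. CXCL9 had 5 reads in PI1 against 14 in PC1, 5 in PI2 against 7 in PC2, and 8 in PI4 against 33 in PC4. CXCL10 had 8 reads in PI5 against 66 in PC5. For CXCL9 the mean of the 5 differences was −0.51, with an SD of 0.285. Those of CXCL10 were −0.87 and 1.06, and those of CCL2 were −0.46 and 0.703. Among these ligands only CXCL9 had a mean larger in size than its SD, which the fit without pairs does not show. All 5 differences of CXCL10 and of CXCL9 were negative. Leaving out numbers 1 and 4, which hold PI1 and PI4, could therefore only leave 3 of 3 of the same sign. An exact paired permutation test, 2-sided and run for each of the 9 ligands, gave p = 0.0625 for CXCL10 and for CXCL9. That is the smallest value that 5 pairs allow. It is reached whenever all 5 share a sign, so it adds nothing to the 5 of 5.

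In cyclic mares the sides went different ways in different numbers. CI was higher than CC for 6 of 9 ligands, against 51.4% of all features. CXCL10 had 1.18 ± 0.81 (log2 CI minus CC ± SE) and CXCL11 0.96 ± 0.73, in a range from −0.34 (CXCL12) to 1.18. Without CI1 they were 0.60 and 0.30, and CXCL10 was at 0.78 without CC1. The smallest adjusted p was 1.00 by limma, and 0% of features were called. The CXCL10 differences of numbers 1 to 5 were 5.07, 3.02, −1.14, 0.14 and −1.21. Those of CXCL9 were 3.30, 1.97, 0.17, 0.08 and −1.40. Some of these rest on few reads: CXCL10 had 4 in CC1, and CXCL9 had 9 in CC1 and 4 in CC2. Number 1, where CI1 is the highest library of all for these genes, thus had the largest ratio, and CCL5 and CCL2 also stood 1.85 and 1.55 higher in CI1 than in CC1.

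**Figure D4:**
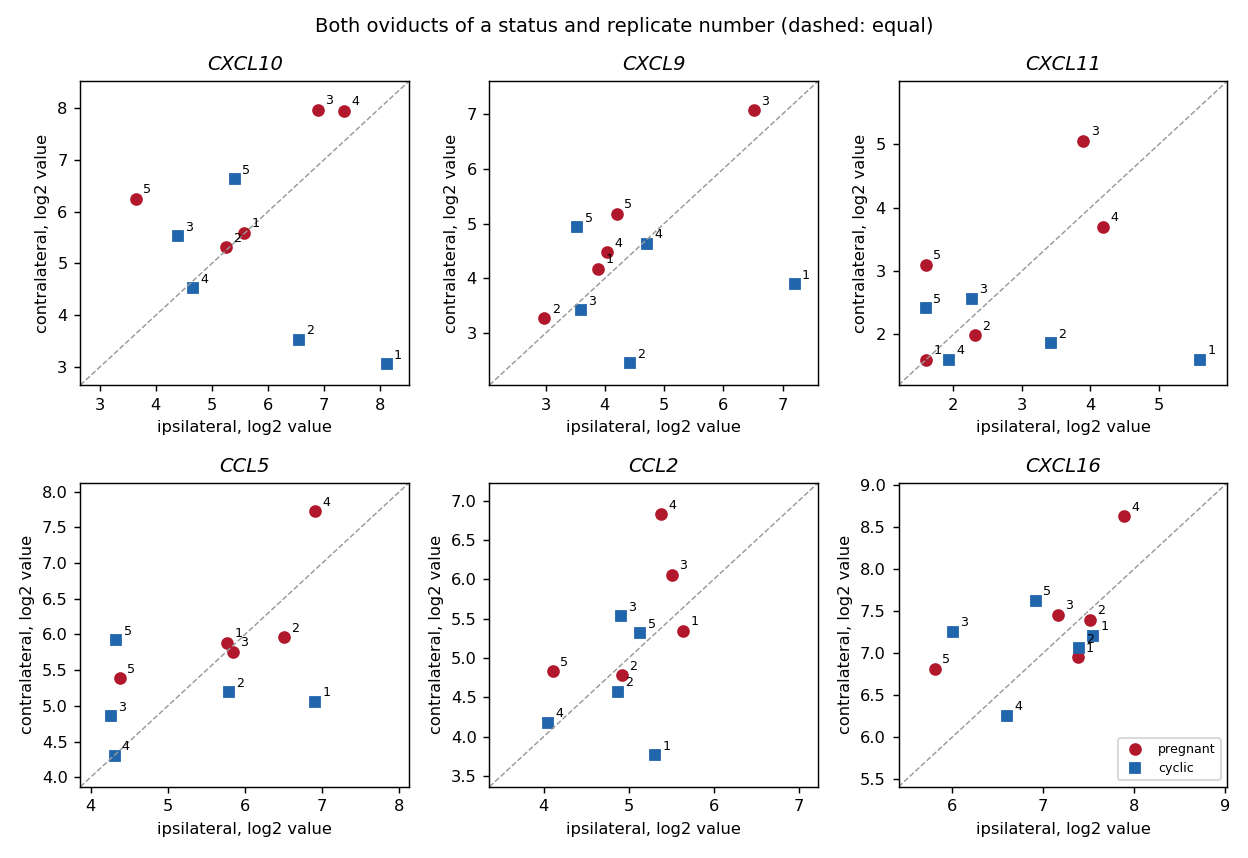
Log2 value (deposited value plus 3.03) in the ipsilateral library (horizontal axis) and the contralateral library (vertical axis) of the same status and number, for 6 ligands, with pregnant libraries as red circles and cyclic ones as blue squares. For CXCL10 and CXCL9 all 5 pregnant points lie above the dashed line of equality, and cyclic number 1 lies far below it.

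The test of whether the side difference depended on pregnancy, the interaction (PI minus PC, less CI minus CC), gave −2.05 ± 1.15 for CXCL10 (unadjusted p = 0.0885 by limma) and −1.33 ± 1.03 for CXCL11 (0.214). Without CI1 the value of CXCL11 was −0.67, and without PC3 −0.84. It was above 0 for 2 of 9 ligands, against 43.4% of all features, with a range from −2.05 to 0.31 (CXCL12). The smallest adjusted p was 1.00 (limma), and 0% of features were called. The CXCL10 difference between pregnant and cyclic mares was therefore not shown to differ between the sides. The ipsilateral and contralateral comparisons share no libraries, but they may share mares.

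Of the receptors, 23 were fixed, 19 were listed in the table and 11 were kept. PI was higher than CI for 4 and lower for 7, and the counts were the same for PC against CC, with 0 called in each. Of all features, 48.1% were higher in PI than in CI and 51.8% in PC than in CC. CXCR3, the receptor of CXCL9, CXCL10 and CXCL11, had means of 7.78 ± 4.38 in PI, 8.45 ± 3.25 in PC, 7.30 ± 7.97 in CI and 5.93 ± 2.33 in CC, with 1 to 22 reads per library. Its highest library was CI1, at 21.2, which was also the highest for its 3 ligands. The log2 differences of CXCR3 were 0.23 ± 0.41 ipsilaterally and 0.37 ± 0.41 contralaterally.

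CXCR4, which binds CXCL12, had means of 167 ± 48.1, 225 ± 65.9, 203 ± 45.8 and 176 ± 18.8 in PI, PC, CI and CC. Its log2 differences between pregnant and cyclic mares were −0.30 ± 0.23 ipsilaterally and 0.31 ± 0.23 contralaterally. ACKR3, the scavenging receptor of CXCL12 and CXCL11, had means of 7.82 ± 2.82, 8.37 ± 2.16, 13.0 ± 7.76 and 17.2 ± 16.9, with differences of −0.45 ± 0.47 and −0.43 ± 0.47. Its means, like those of CXCL12, were higher in CI and CC than in PI and PC, by less than the spread of the libraries.

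CX3CR1 had means of 56.4 ± 28.8, 71.3 ± 40.0, 59.2 ± 24.0 and 66.0 ± 9.43, and differences of −0.10 ± 0.32 ipsilaterally and −0.01 ± 0.32 contralaterally. CCR2, the receptor of CCL2, had means of 17.2 ± 7.89, 19.2 ± 10.5, 19.1 ± 11.8 and 12.9 ± 6.54. CCR10 had 5.99 ± 4.10, 6.13 ± 2.70, 7.81 ± 3.26 and 6.70 ± 2.28. The groups overlapped in all 3 of these receptors. CXCR6, the receptor of CXCL16, was listed with 0 reads in all 20 libraries. A count of 0 in a single library allows up to 3 reads, and 0 in all 20 allows up to 3 in their sum. Of the receptors for other ligands, CCR8 had the smallest p, with a log2 difference of 0.84 ± 0.35 for the averaged oviducts (unadjusted p = 0.0329, adjusted p = 0.999 by limma). It had only 0 to 15 reads per library.

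Of 28 other ligands fixed, 16 were listed and 4 were kept: CXCL1 (under its older symbol MGSA), CXCL6, CXCL17 and CCL14. CXCL17, a chemokine of mucosal epithelium, had means of 137 ± 70.1 in PI, 130 ± 56.4 in PC, 60.6 ± 30.1 in CI and 85.8 ± 52.0 in CC. Its ipsilateral log2 difference was 1.22 ± 0.50 (unadjusted p = 0.0245, adjusted p = 0.999 by limma) and its contralateral one 0.64 ± 0.50. PI was higher than CI for 3 of the 4, against 48.1% of all features. PC was higher than CC for 4 of 4, against 51.8%, with 0 called. CXCL6 was near the limit of detection, with 0 to 12 reads per library and at most 3 in CI. MGSA, an attractant of neutrophils, had means of 29.2 ± 5.50, 25.3 ± 6.59, 20.6 ± 3.21 and 17.5 ± 8.75.

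Among genes that induce or restrain chemokine expression, 24 were fixed, 23 listed and 19 kept. IFNG, the cytokine that induces CXCL9, had 0 to 2 reads in every library, and TNF had 0 to 4. PI was higher than CI for 9 of 19, against 48.1% of all features. PC was higher than CC for 11 of 19, against 51.8%, with 0 called. IRF7, a regulator of type I interferon genes, had the largest difference of the list, 2.23 ± 0.91 contralaterally (unadjusted p = 0.0232 by limma) and 1.61 ± 0.91 ipsilaterally (0.0913). IRF9 had a contralateral log2 difference of 1.15 ± 0.50 and STAT2 one of 0.87 ± 0.42, with unadjusted p of 0.0323 and 0.0504 (limma). The level of IRF7 ran from 45.1 to 155 in CC and from 99.8 to 1628 in PC.

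Of 10 genes whose proteins process, shed or bind chemokines, 9 were listed and 8 kept, with 0 called. DPP4, the peptidase that trims CXCL10 at its start, had means of 905 ± 222 in PI, 1024 ± 243 in PC, 670 ± 217 in CI and 694 ± 215 in CC. Its contralateral log2 difference was 0.58 ± 0.23 (unadjusted p = 0.0202, adjusted p = 1.00 by limma) and its ipsilateral one 0.46 ± 0.23. The shedding proteases of CXCL16 and CX3CL1 differed less: ADAM10 had −0.28 ± 0.23 ipsilaterally and 0.05 ± 0.23 contralaterally, and ADAM17 had 0.15 ± 0.11 and −0.02 ± 0.11.

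Several ligands varied together across the 20 libraries. Pearson's r of log2 values is given here as a description, without a test, since the libraries share depth and cell mix and may share mares. CXCL10 and CXCL11 had r = 0.849 and CXCL9 and CXCL11 0.747, while CXCL9 and CXCL10 had 0.660. CXCL10 also had 0.8003 with CCL2, and CXCL16 had 0.875 with CCL5. CXCL12 had negative r with each of the other 8 ligands.

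For each ligand the 3 features with a symbol that were most like it were listed. Those of CCL5 were AOAH (0.953), an enzyme of myeloid cells that inactivates endotoxin, PTPRC (0.946) and PRF1 (0.943), the perforin of cytotoxic lymphocytes. Those of CXCL16 were VAV1 (0.931), LAPTM5 (0.896) and HCLS1 (0.879), all known from blood cells. CXCL10 was most like PLK4 (0.865), FAM111B (0.859) and the interferon-induced GTPase GBP2 (0.856), and CCL2 like CASP4 (0.909), FAM111B (0.894) and the peptide transporter TAP1 (0.879).

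CXCL11 was most like WARS (0.851), an interferon-inducible tRNA ligase, CXCL10 and the MHC class II feature DRB_1 (0.799), and CXCL9 like CXCL11, COL22A1 (0.707) and RARRES3 (0.704). CXCL12 was most like CRISPLD2 (0.925), DKK3 (0.860) and ADGRD1 (0.853), and its r with its own receptor ACKR3 was 0.820. CX3CL1 was most like TGM2 (0.818), IL1B (0.797) and ARHGAP1 (0.749), and CCL28 like ZNHIT6 (0.728), ARSI (0.701) and CD24 (0.678). The values for CCL28 are thus the lowest, next to those of CXCL9.

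**Figure D5:**
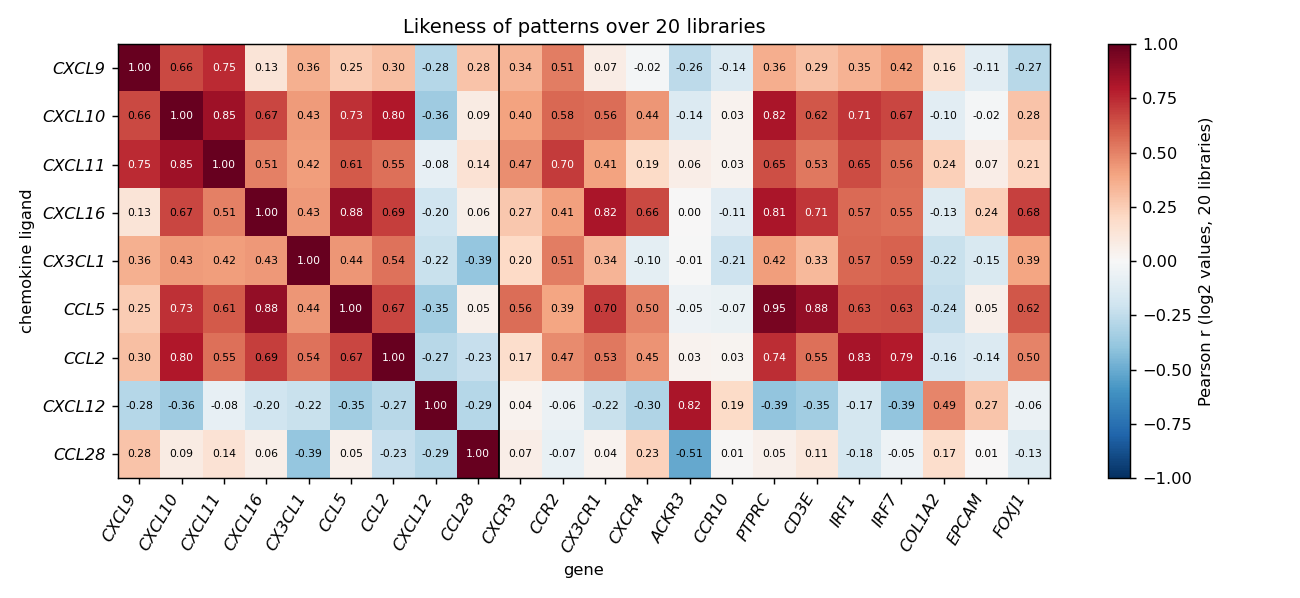
Pearson's r over 20 libraries (colour and number, from −1 to 1) between each of the 9 ligands (rows) and the ligands, their receptors and marker genes (columns). CCL5 and CXCL16 go with PTPRC (0.946 and 0.81), CCL2 with IRF1 (0.83), and CXCL12 with ACKR3 (0.820).

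Markers of several cell types were set beside these values. Of all features, 48.1% were higher in PI than in CI and 51.8% in PC than in CC. Markers of a cell type can vary together, so their signs are not separate results. The 5 multiciliated markers were higher in pregnant mares for 5 of 5 on each side, with 0 called. The r of FOXJ1, a multiciliated marker, with the 9 ligands ran from −0.27 (CXCL9) to 0.68 (CXCL16), with 0.62 for CCL5. The 8 T and natural killer cell markers summed to 164 to 438 normalized counts in PI, 255 to 788 in PC, 157 to 504 in CI and 144 to 293 in CC, and the highest sums were those of PC4 and CI1, the libraries with the highest chemokine values. Of the 7 of them kept, 6 were higher in PI than in CI and 7 in PC than in CC, with a median contralateral log2 difference of 0.86 and 0 called. PTPRC itself had 0.48 ipsilaterally and 0.76 contralaterally, and its r with CXCL10 was 0.817. The 5 macrophage and dendritic cell markers summed to 298 to 911 in PI, 413 to 1233 in PC, 368 to 814 in CI and 416 to 805 in CC. The 6 stromal markers were lower in pregnant mares for 6 of 6 on each side, with 0 called. They summed to 733 to 5936 in PI, 1201 to 3737 in PC, 1545 to 3342 in CI and 861 to 6078 in CC. CXCL12 had r = 0.489 with the stromal gene COL1A2. Library PI3, with the highest stromal sum in PI, had the lowest CXCL12 of that group (8.49). The part of these cells in the chemokine values was not tested.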

How the data were processed

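The deposited table holds gene counts that the authors scaled by TMM (trimmed mean of M values), so its unit is a signal: reads times 1 factor per library. The labels give a stranded total RNA kit with rRNA depletion and, elsewhere, polyA RNA as the molecule. The submitters' processing notes name CASAVA 1.8; for aligner, counter, strand setting, build and annotation, the sources used here give nothing, so overlapping and antisense genes and near-identical copies are uncertain. Dividing by the smallest step gave whole reads for 100% of the values within 0.01 reads. The file lists 26740 features, 20350 with reads. A feature was kept if it exceeded 1 CPM in 5 or more libraries, which left 14692.

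Log2(value + 3.03 normalized counts, equal to 0.5 CPM) was fitted with limma 3.58.1 (R 4.3.3; trend, robust) with 4 group means over all 20 libraries, 2-sided, with Benjamini-Hochberg adjustment over all features kept and a threshold of 0.05. The pseudocount shrinks the fold changes of genes with few reads. Both oviducts of a status and number were averaged for 1 further comparison of 10 units, which makes 6 in all. The steps were tested on simulated data. edgeR 4.0.16 and DESeq2 1.42.0 on the recovered reads, another pseudocount, other filters, CPM without TMM, the replicate block and libraries left out were alternatives.

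The labels do not say that equal numbers are the same mare. Deviations from the group means correlated between same-numbered pregnant libraries at 0.700, 0.600, 0.530, 0.641 and 0.592, so these were treated as pairs. Between pregnant and cyclic libraries numbered 2, they correlated at 0.587 ipsilaterally and 0.488 contralaterally. For the other numbers these values ran from −0.396 to 0.123. What number 2 shares across status was not tested, and the fits treat pregnant and cyclic libraries as independent. The design text speaks of biological replicates; where libraries share a mare, p-values measure the spread between libraries. Among pairs within a group or of the same status and number, no 2 libraries agreed within sampling noise. Other pairs, such as pregnant with cyclic libraries, were not compared in this way.

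The members and the gene lists were chosen with earlier results of these data known. Named were all 9 members and their receptors, up to 4 other genes per list with the smallest unadjusted p, and the 3 features most like each member; a few of these are not reported here. In comparisons of sides, the interaction and the averaged oviducts, values are given for the 2 members with the smallest p. Gene lengths were not used here, so levels are not compared between genes; CXCL1 and CXCL8 were found under older symbols.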

Additional observations from a re-analysis of the deposited data

Results flagged for a closer look

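Of 36 groups examined (9 ligands in 4 groups of 5 libraries), 2 held a library far from the others, and chance alone marks about 1 group in 20. CCL5 in PC4 was 209 normalized counts, where the nearest of the other PC libraries (PC2) had 59.4. PC4 also had the highest PTPRC, the marker of all leukocytes, at 704, and its part in the CCL5 value was not tested. CCL28 in PI5 was 21.3 normalized counts, below the other PI libraries, of which the nearest (PI1) had 32.8.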

How the results depend on the processing

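No feature was called by limma in any of the 6 comparisons under another pseudocount or either other filter, whereas 1 feature was called in PC against CC with CPM without TMM. edgeR called 0 in each comparison. DESeq2 called 12 features in PC against CC and 16 for the mean of both oviducts, and 0 in the other 4. No ligand was among those called. At an unadjusted p under 0.05, limma, edgeR and DESeq2 gave 514, 494 and 560 features for PI against CI, 669, 838 and 950 for PC against CC, 112, 77 and 83 for PI against PC, 42, 50 and 55 for CI against CC, 47, 39 and 49 for the interaction, and 649, 756 and 922 for the mean of both oviducts.

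With status and number as a replicate block (correlation 0.393 as a random term, or as a fixed term for the sides), 0 features were called in each of the 5 comparisons that allow it. In cyclic mares, deviations of same-numbered libraries correlated at 0.295, 0.679, 0.0228, −0.0408 and 0.621, so pairing was not established: 3 of 5 numbers correlated above any other, numbers 3 and 4 did not.

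Without PI1, PI4 and CI3, PI was higher than CI for 2 ligands, and 3 differences changed sign: CXCL16 was at −0.29, CCL2 at −0.0003 and CCL28 at −0.0862. Leaving out each library in turn, the number of ligands higher in PI ran from 4 (without CI5) to 8 (without CI1). The PI minus CI difference then ran from −0.49 (without PI4) to 0.48 for CXCL10, −0.92 (without PI3) to 0.26 for CXCL9 and −0.61 (without PI4) to 0.41 for CXCL11, with each upper end reached without CI1. For CCL28 it ran from −0.0854 (without CI5) to 0.32 (without CI4), and PC minus CC from −0.35 (without CC3) to 0.0510 (without CC4). The cause was not tested. The other member differences given with their values kept their sign under each alternative run. CXCL11, with 3 reads or fewer in 13 libraries, is limited by depth. CXCL9 and CXCL10 each had as few as 4 reads in a library.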
